A study of Mus musculus with 6 samples.

Results

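The transcripts of 9 genes of the BCL2 family were followed through single cells of aged mouse lung. The genes were picked by symbol, and all 9 were found among the 31054 features of each library: Bcl2, Bcl2l1, Mcl1 and Bcl2a1b, which hold apoptosis back, and Bcl2l11, Bbc3, Pmaip1, Bid and Bak1, which promote it. The set therefore holds 4 survival genes and 5 death genes, whatever the name of the family says. Both groups were male C57BL/6 mice of 21 months, and the study asked what follows in the lung from the removal of cells high in p16, a product of Cdkn2a that stops the cell cycle. Mice of genotype p16-CreERT2/R26-LSL-DTR (p16-DTR, 3 libraries) carry a tamoxifen-dependent Cre recombinase driven by the p16 gene and a diphtheria toxin receptor that Cre switches on. Mice of genotype p16-CreERT2 (control, 3 libraries) carry the Cre alone. All 6 mice received tamoxifen (TAM) on 5 days and, 2 weeks later, diphtheria toxin (DT) on 5 days, and recovered for 2 weeks, so the drugs and the Cre are shared and the receptor is the difference. Only cells in which the p16 gene drives Cre when tamoxifen is present can come to carry the receptor. Lungs were digested with Liberase, and 20000 CD45- and 9000 CD45+ sorted cells of each lung were mixed for a 10x Genomics 3' library. The mixture fixes the ratio of leukocytes to other cells, so the number of cells of a type is not a measure of its share of the lung.

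BCL2 family proteins decide at the outer mitochondrial membrane whether a cell starts the intrinsic pathway of apoptosis. Guardian proteins such as BCL2, BCL-XL (from Bcl2l1), MCL1 and A1 (from the Bcl2a1 genes) bind and hold the pore formers BAK and BAX, and BH3-only proteins such as BIM (from Bcl2l11), PUMA (Bbc3), NOXA (Pmaip1) and BID release or activate these pore formers. Lymphocytes are known to lean on BCL2 and MCL1, neutrophils on MCL1 and A1, and platelets on BCL-XL. Senescent cells are known for resisting apoptosis, and drugs that block BCL2 and BCL-XL are studied as senolytics, agents that clear such cells.

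By GENCODE M21 on GRCm38, Bcl2 (ENSMUSG00000057329) lies at chr1:106538178-106714274 on the minus strand and Bcl2l1 (ENSMUSG00000007659) at chr2:152780668-152831728, also on the minus strand. Bcl2l11 (ENSMUSG00000027381) lies at chr2:128126038-128162547 and Mcl1 (ENSMUSG00000038612) at chr3:95658788-95663176, both on the plus strand. Bbc3 (ENSMUSG00000002083) is at chr7:16308393-16318205 on the plus strand, Bak1 (ENSMUSG00000057789) at chr17:27019810-27029009 and Bid (ENSMUSG00000004446) at chr6:120891930-120916853, both on the minus strand. Bcl2a1b (ENSMUSG00000089929), at chr9:89199209-89207827 on the plus strand, has the near-identical copies Bcl2a1a and Bcl2a1d on the same chromosome, and the 3 fell together in CD4 T cells of the libraries labelled p16-DTR. A stretch of 87 bases from within the 250 bases before each gene's RefSeq start (GRCm38.p6) is shown for the 3 copies because it carries how alike they are. Capitals mark the 2 positions at which the 3 genes are not all the same, and the rest is identical. The Bcl2a1b stretch is chr9:89199122-89199208 (plus strand), that of Bcl2a1a chr9:88956813-88956899 (plus strand) and that of Bcl2a1d chr9:88731871-88731957 (minus strand, where the GENCODE gene model reaches into it).
Bcl2a1b: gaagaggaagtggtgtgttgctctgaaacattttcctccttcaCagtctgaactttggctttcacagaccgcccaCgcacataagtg
Bcl2a1a: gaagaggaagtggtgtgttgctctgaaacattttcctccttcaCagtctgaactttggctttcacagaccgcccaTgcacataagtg
Bcl2a1d: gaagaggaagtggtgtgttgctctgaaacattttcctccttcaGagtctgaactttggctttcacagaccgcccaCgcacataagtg
Bcl2a1b differed from each of the others at 1 of these 87 bases. Their annotated transcripts are as close: 98.2% of the aligned bases of Bcl2a1b and Bcl2a1a were identical, and 99.1% of those of Bcl2a1b and Bcl2a1d, with identical runs of up to 217 bases in both pairs. How the authors' counting treated reads that match more than 1 of these copies was not tested, and values of Bcl2a1b are uncertain to that extent.

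Each library held between 13482 and 17332 barcodes, of which 12346 to 15744 were retained, and the retained cells of a library carried between 229843551 and 304704257 unique molecular identifiers (UMIs, counts of single captured transcripts). Libraries shared between 59 and 94 barcode sequences in a pair. Levels are given throughout as UMIs of a gene per 1000000 UMIs (CPM) of the summed cells of a library, with mean ± SD over 3 libraries of a group or over all 6. Cells were assigned to 31 gates, each asking for at least 2 UMIs of each of 2 marker genes, such as Car4 and Ednrb for aerocytes, the large capillary cells of gas exchange. The targeted gene went against the label: Cdkn2a over all cells stood at 6.76, 8.50 and 7.25 CPM under the label p16-DTR against 1.19, 2.59 and 2.81 CPM in controls (log2 fold change 1.82, SE 0.31, edgeR adjusted p = 0.137). In aerocytes it stood at 40.4, 32.1 and 40.6 against 21.6, 35.8 and 41.9 CPM (adjusted p = 0.729). It was called higher under that label in general capillary cells (3.66 ± 0.69 against 0.49 ± 0.24 CPM, 2.98, edgeR adjusted p = 0.0208) and in CD4 T cells (18.2 ± 4.18 against 3.85 ± 2.95 CPM, 2.15, adjusted p = 0.0235), and also in alveolar fibroblasts, B cells, CD8 T cells, natural killer cells and ciliated cells (adjusted p of 0.00119 to 0.0305). Every direction between the groups below is therefore a direction between libraries labelled p16-DTR and control libraries. Whether the p16-DTR libraries held fewer p16-high cells was not tested, and no direction is given as an effect of their removal. The arterial gate carried 658 to 946 CPM of the mesenchymal gene Col1a2 beside 354 to 1336 CPM of the endothelial gene Pecam1, so it is a mixed gate. Among the gates too small for a test, those of alveolar type 1 cells, platelets or megakaryocytes, mature dendritic cells and plasma cells also carried markers of other lineages in some libraries. The epithelial gene Epcam stood at 36.2 to 247 CPM in alveolar macrophages, 46.4 to 98.7 in type 1 and 4.93 to 104 in type 2 conventional dendritic cells, beside 194 to 245 CPM in alveolar type 2 cells. In aerocytes Pecam1 stood at 2195 to 2415 CPM, and in the CD4 T gate the leukocyte gene Ptprc stood at 1650 to 2188 CPM.

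The 9 genes did not all peak in the same cells. Among the 19 gates with at least 30 cells in every library, Bcl2, the founding guardian, was highest in CD8 T cells (1235 ± 139 CPM, SD, n = 6 libraries), followed by natural killer cells (866 ± 77.9) and CD4 T cells (578 ± 86.6). Gamma-delta T cells (444 ± 140) and nonclassical monocytes (370 ± 37.7) came next. It was lowest in ciliated cells (24.7 ± 8.13), classical monocytes (20.7 ± 4.05) and neutrophils (12.9 ± 6.67). Of the 18 neighbouring pairs in this order, 5 did not overlap over the 6 libraries: CD8 T and natural killer, natural killer and CD4 T, nonclassical monocyte and B cell, B cell and pericyte, and venous endothelium and ciliated. Lymphocytes and nonclassical monocytes were thus set apart, while stromal and endothelial gates from lymphatic endothelium (129 ± 53.4) down to venous endothelium (73.8 ± 22.2) ran into one another.

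Bcl2l1, which encodes BCL-XL, had a different order. Aerocytes (330 ± 75.3 CPM), venous endothelium (306 ± 127) and general capillary endothelium (283 ± 75.7) led, and alveolar fibroblasts (206 ± 61.1), arterial (192 ± 62.5) and lymphatic endothelium (186 ± 39.8) followed. These 6 gates overlapped between neighbours. It stood at 12.7 ± 1.98 CPM in nonclassical monocytes, 8.65 ± 1.35 in classical monocytes and 5.17 ± 0.92 in B cells, and 2 of the 18 neighbouring pairs were apart, both at this low end.

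Mcl1, a guardian with a short-lived protein, peaked in neutrophils at 2551 ± 118 CPM, followed by classical monocytes at 965 ± 46.0. Nonclassical monocytes (692 ± 22.5) and interstitial macrophages (671 ± 29.2) overlapped each other and stood above venous endothelium (460 ± 88.3). Ciliated cells (172 ± 27.8) and gamma-delta T cells (171 ± 20.3) were lowest, and 3 neighbouring pairs were apart, all among the myeloid gates or between them and the rest. Bcl2a1b was a leukocyte gene: interstitial macrophages (383 ± 34.8 CPM), gamma-delta T cells (351 ± 52.8), nonclassical monocytes (260 ± 38.3) and CD4 T cells (156 ± 34.9) held the most. Classical monocytes stood at 9.41 ± 2.30 CPM, and the 10 gates of non-leukocytes had means of 1.77 CPM or less. Venous endothelium had no Bcl2a1b UMI in 548 cells, which allows a share of cells with a UMI of up to 0.547%, for counting error only.

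The orders of the death genes were alike in part, with nonclassical monocytes first for Bbc3, Pmaip1 and Bak1. Bcl2l11, which encodes BIM, was highest in natural killer cells (529 ± 58.4 CPM), neutrophils (347 ± 50.2) and CD8 T cells (256 ± 19.5), and lowest in aerocytes (21.3 ± 3.69), ciliated cells (20.7 ± 5.97) and adventitial fibroblasts (18.4 ± 4.75). Bbc3, a p53 target that encodes PUMA, ranged only from 38.0 ± 4.64 CPM in nonclassical monocytes to 3.85 ± 1.25 in neutrophils, and none of its 18 neighbouring pairs was apart. Nonclassical monocytes also led for Pmaip1, which encodes NOXA (155 ± 14.2 CPM), and for the pore former Bak1 (62.5 ± 4.09). Pmaip1 in aerocytes stood at 49.2 ± 12.2 CPM against 19.4 ± 1.40 in general capillary cells, without overlap between the 6 libraries of each. Bid, which is cut by caspase 8 to become active, was highest in neutrophils (28.3 ± 1.67 CPM) and classical monocytes (22.7 ± 1.36) and lowest in ciliated cells (0.738 ± 0.463). Neutrophils therefore combined the most Mcl1 and Bid with the least Bcl2 and Bbc3 of the 19 gates.

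Another 12 gates were too small for a test and are described only, with 7 cells at the fewest. Platelets or megakaryocytes were the highest of them for Bcl2l1 (245 ± 77.2 CPM, n = 6) and for Bid (70.5 ± 27.7). That gate was mixed: it held 456 CPM of Col1a2 in control replicate 1, and in control replicate 3 it held 315 cells, against 16 to 29 in the other libraries, with 422 CPM of the endothelial gene Cldn5. Mature dendritic cells were the highest for Bcl2a1b (998 ± 258) and Pmaip1 (594 ± 125), and type 1 (365 ± 36.4) and type 2 conventional dendritic cells (261 ± 72.3) came next for Pmaip1. Type 2 conventional dendritic cells, whose Epcam reached 104 CPM in p16-DTR replicate 1, had the most Mcl1 (886 ± 135) and Bak1 (54.0 ± 9.68), and plasma cells (173 ± 72.5) and smooth muscle cells (169 ± 28.9) the most Bcl2. In alveolar type 2 cells, the surfactant producers, Bcl2 stood at 14.4 ± 4.46 CPM, Bcl2l1 at 67.9 ± 19.9 and Mcl1 at 183 ± 15.5. Bcl2l11 in basophils varied most, from 17.7 to 338 CPM between libraries.

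**Figure D1:**
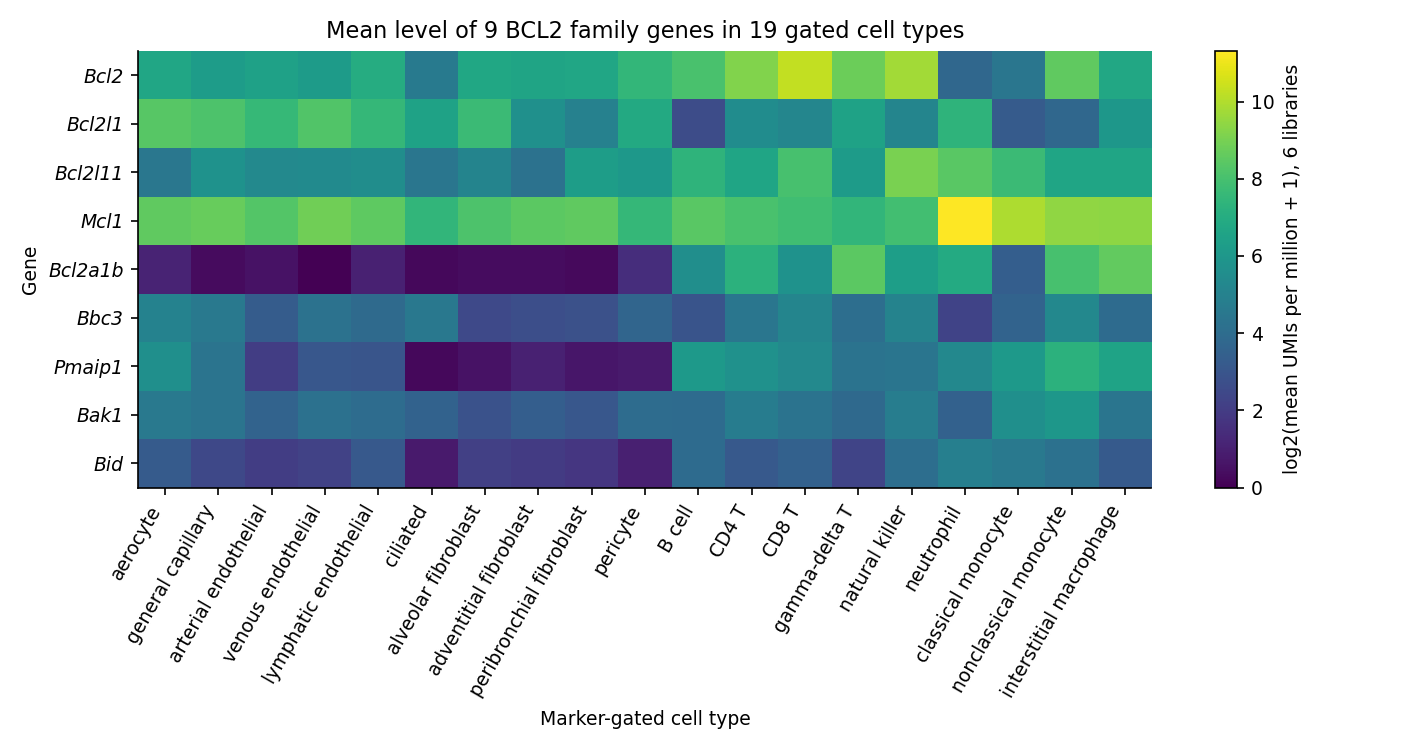
Levels of the 9 genes in the 19 tested gates, as log2(mean CPM over 6 libraries + 1) in colour. Bcl2 was highest in CD8 T cells (1235 CPM), Mcl1 in neutrophils (2551 CPM) and Bcl2l1 in aerocytes (330 CPM).

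The genes whose levels over the 19 gates were most like each member's are a description of these libraries, over points that share library and depth. For Bcl2a1b they were its copy Bcl2a1d (Pearson r = 0.99), Rgs1 (0.97) and Gpr65 (0.95), and for Bcl2 they were Kctd18 (0.93), Atad5 (0.92) and Kif20b (0.92). Bcl2l1 was closest to Syne1 (0.83), Qsox1 (0.81) and Notch1 (0.80), and near to Bcl2l11 were 5830432E09Rik (0.88) and Ube2j2 (0.87). Mcl1 was closest to C130050O18Rik (0.92), Snap23 (0.91) and Ndel1 (0.91), and near to Pmaip1 were Nrros (0.94) and Abcg3 (0.92). The nearest genes to Bbc3 were Tmem128 (0.84), Fam53b (0.79) and Polr2g (0.79), those to Bak1 were Api5 (0.89), Cmpk1 (0.88) and Brpf1 (0.88), and those to Bid were Taf13 (0.93), Bcl10 (0.93) and Zcchc2 (0.91).

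Few of the 9 genes differed between the groups at the level of a gate. Of 171 combinations of a gene and a gate, 151 had enough UMIs to be tested, and 3 were called at an adjusted p under 0.05 (edgeR quasi-likelihood test on summed UMIs of 3 against 3 libraries, Benjamini-Hochberg over all genes of a gate). Bcl2l1 rose in venous endothelium, and in CD4 T cells Bcl2l11 rose and Bcl2a1b fell. Over all genes and the same 19 gates, 0.506% of pairs were called. The p-values measure the spread between libraries, each from a separate animal by its label. The 20 untested pairs were those of Bcl2a1b, Pmaip1 or Bid in gates with too few summed UMIs of the gene, such as Bid in gamma-delta T cells and interstitial macrophages. In gates of more cells, pairs at a low level were tested, such as Pmaip1 in alveolar fibroblasts (0.462 CPM).

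Below that threshold the members leaned to higher levels in libraries labelled p16-DTR. Of the 151 pairs, 94 had a positive and 57 a negative log2 fold change, against 50.1% positive over all pairs of genes and gates. At an unadjusted p under 0.05 there were 32 pairs, 23 higher and 9 lower, beside 12.5% of all pairs (6.11% higher and 6.36% lower). Groups did not overlap in 31 pairs, 22 higher and 9 lower, beside 18.0% of all pairs (7.87% higher and 10.1% lower). The 9 genes do not vary independently, and the gates share their 6 libraries, so these counts are a description. By gene, the sign was positive in 17 of 19 gates for Bbc3, 16 of 19 for Bak1, 15 of 19 for Bcl2l1 and 13 of 19 for Bcl2. Mcl1 was positive in 8 of 19 gates and Bcl2l11 in 5 of 19, the lowest share of the 9. Both survival and death genes thus stood among those with mostly positive values.

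**Figure D2:**
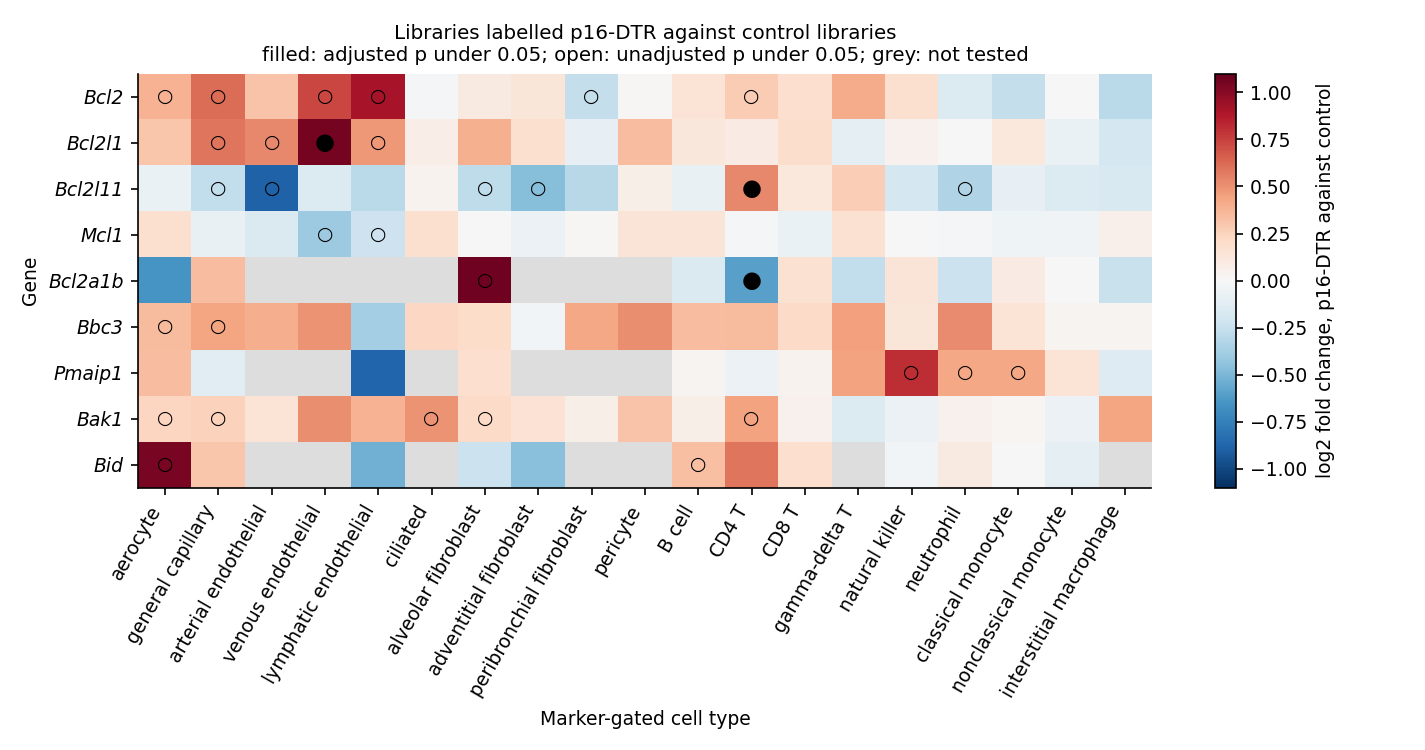
Log2 fold changes of the 9 genes in each tested gate, libraries labelled p16-DTR against control (edgeR, 3 against 3 libraries), with filled circles for called pairs, open circles for an unadjusted p under 0.05 and grey for pairs not tested. The filled circles are Bcl2l1 in venous endothelium (1.06), Bcl2l11 in CD4 T cells (0.53) and Bcl2a1b in CD4 T cells (-0.60).

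In venous endothelium Bcl2l1 was 430.0, 325.0 and 478.3 CPM in libraries with the p16-DTR label, against 161.3, 225.7 and 218.1 CPM in controls. The lowest p16-DTR library lay above the highest control. Bcl2l1 rose from 202 ± 35.2 to 411 ± 78.4 CPM (log2 fold change 1.06, SE 0.17, edgeR adjusted p = 0.0136), in a gate where 0.95% of tested genes were called and 0.503% were called higher. The sums rested on 955 against 929 UMIs from 66 to 130 cells a library, and the single richest cell gave at most 11.5% of a library's Bcl2l1 UMIs. Without p16-DTR replicate 3 the log2 fold change was 0.95 and the call was lost (adjusted p = 0.112). The other survival genes of the gate did not pass the test. Bcl2 stood at 104.6, 80.6 and 89.3 against 44.2, 55.6 and 68.6 CPM (0.74, adjusted p = 0.0868). Mcl1 stood at 348.4, 476.6 and 353.2 against 553.9, 511.8 and 517.7 CPM (-0.40, adjusted p = 0.241). All 3 genes were without overlap between the groups in this gate, Bcl2l1 and Bcl2 on the higher and Mcl1 on the lower side in the p16-DTR libraries, beside 17.5% of its tested genes.

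The other endothelial gates had Bcl2l1 on the same side without a call. In general capillary cells it was 311.2, 279.5 and 415.3 against 198.5, 261.9 and 230.6 CPM (0.58, adjusted p = 0.0865), again without overlap. Lymphatic endothelium had 202.6, 206.7 and 240.7 against 124.0, 169.6 and 174.8 CPM (0.47, adjusted p = 0.179), and the mixed arterial gate had 201.6, 175.8 and 309.8 against 127.0, 169.9 and 168.6 CPM (0.53, adjusted p = 0.717). Aerocytes overlapped, with 373.5, 299.5 and 411.6 against 222.1, 396.8 and 277.2 CPM (0.31, adjusted p = 0.548). Control replicate 2 was the high control in aerocytes. Tested directly, the venous effect on Bcl2l1 was not called different from that in aerocytes (difference 0.70, adjusted p = 0.128), general capillary (0.46, 0.131), arterial (0.55, 0.801) or lymphatic endothelium (0.59, 0.415), so the rise is not shown to be particular to venous cells.

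Bcl2 was without overlap in 4 of the 5 endothelial gates, and in none was it called. In aerocytes it was 120.0, 119.6 and 104.1 against 87.4, 88.2 and 95.4 CPM (0.38, SE 0.07, adjusted p = 0.110). General capillary cells had 82.9, 93.3 and 94.5 against 48.5, 63.5 and 69.6 CPM (0.62, SE 0.13, adjusted p = 0.0543), just outside the threshold. Lymphatic endothelium had 127.4, 162.0 and 218.6 against 103.9, 75.2 and 89.1 CPM (0.90, SE 0.18, adjusted p = 0.0712). There p16-DTR replicate 3 was the highest, and the values of that group spread widely. The arterial gate overlapped, with 111.5, 105.7 and 80.5 against 77.8, 72.7 and 86.9 CPM (0.31, adjusted p = 0.749). In the same gates 20.0% of tested genes were without overlap in aerocytes, 29.4% in general capillary cells, 15.7% in lymphatic endothelium and 12.5% in the arterial gate. Called were 0.0158% of genes in aerocytes, 1.72% in general capillary cells, 0.162% in lymphatic endothelium and 0.00928% in the arterial gate.

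**Figure D3:**
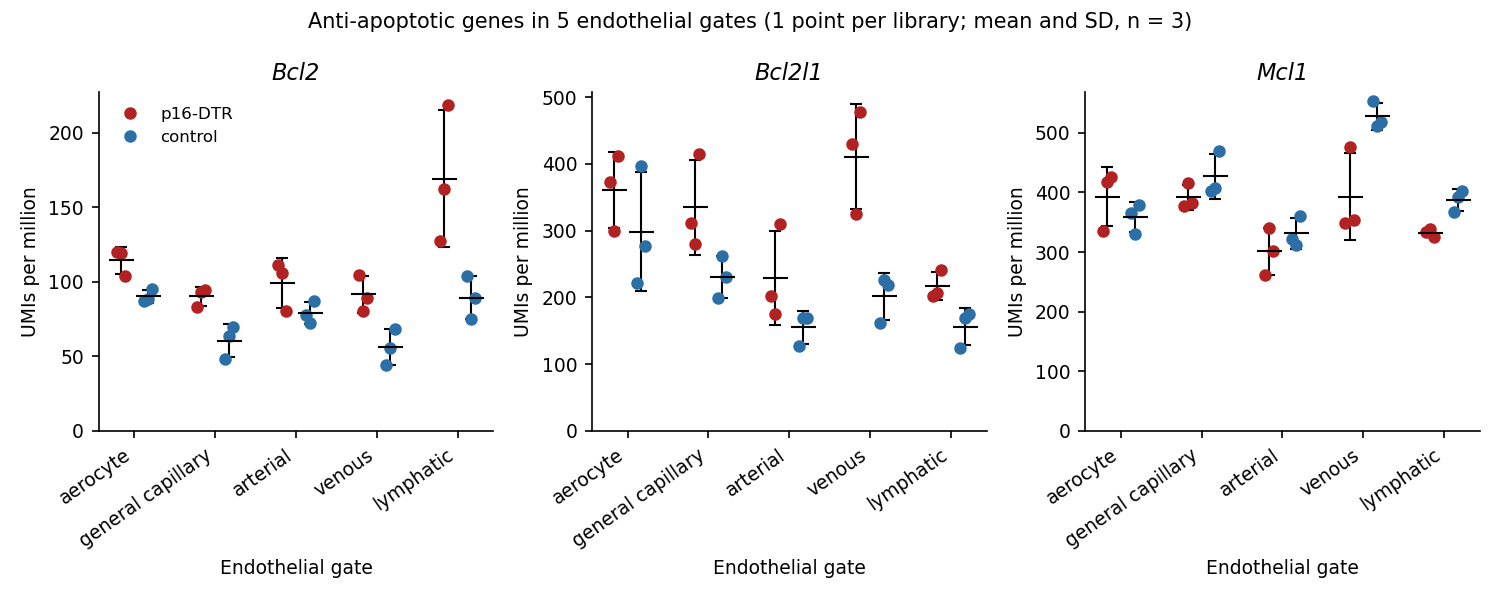
Bcl2, Bcl2l1 and Mcl1 in the 5 endothelial gates, in CPM, with each point a library and bars for the mean and SD of each group (n = 3). In venous endothelium the p16-DTR libraries held 325.0 to 478.3 CPM of Bcl2l1 and the control libraries 161.3 to 225.7.

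The death genes of the endothelium were not called. In aerocytes Bid was 11.2, 10.0 and 12.9 against 5.13, 5.59 and 6.15 CPM, about 2-fold and without overlap (1.04, SE 0.16, adjusted p = 0.098). Bbc3 was also without overlap there, at 34.4 ± 3.00 against 27.7 ± 1.16 CPM (0.35, adjusted p = 0.148), as was Bak1, at 25.1, 24.0 and 25.3 against 20.7, 22.0 and 21.9 CPM (0.24, adjusted p = 0.241). In general capillary cells Bbc3 was 26.2 ± 1.34 against 20.0 ± 2.09 CPM (0.43, adjusted p = 0.0523). Bcl2l11 went the other way in that gate, at 45.8, 45.5 and 51.2 against 63.1, 59.8 and 54.3 CPM (-0.27, adjusted p = 0.0838). Pmaip1 of general capillary cells was 18.3 ± 1.04 against 20.5 ± 0.437 CPM (-0.12, adjusted p = 0.288). In the mixed arterial gate Bcl2l11 had the lowest log2 fold change of any tested pair (-0.89, adjusted p = 0.701), with overlap. Of the 8 tested members of lymphatic endothelium, 3 were positive and 5 negative, beside 50.1% positive over all pairs of genes and gates. Bcl2 and Bcl2l1 were among the positive, and the median log2 fold change of the 8 was -0.26. Groups did not overlap for 3 of the 8, 2 higher and 1 lower, beside 15.7% of genes.

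Genes of the response to tissue dissociation moved with the group in venous, general capillary and lymphatic endothelium. The summed level of a list of 15 such genes was 6513 to 9734 CPM in venous endothelium of the p16-DTR libraries and 11045 to 14171 CPM in controls, and 6038 to 7314 against 7858 to 10700 CPM in general capillary cells. In lymphatic endothelium it was 11079 to 12023 against 13422 to 15911 CPM. Aerocytes overlapped, with 5787 to 6773 against 6485 to 8272 CPM. Of 277 tests of these 15 genes over the gates, none was called higher and 12 were called lower, in 5 gates without aerocytes. Over all pairs of genes and gates 0.506% were called. The 12 included the immediate early gene Egr1 in venous endothelium (534 ± 143 against 1462 ± 384 CPM, -1.42, edgeR adjusted p = 0.0106). In monocytes the same sum was higher in the p16-DTR libraries, without overlap: 8219 to 9421 against 6289 to 7474 CPM in classical and 5856 to 6289 against 5084 to 5786 CPM in nonclassical monocytes. The part of these genes in the values of the BCL2 genes was not tested.

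In CD4 T cells the survival gene Bcl2a1b fell and the death gene Bcl2l11 rose in the libraries labelled p16-DTR. Bcl2a1b was 138.0, 120.9 and 119.0 CPM there and 183.3, 202.7 and 171.3 CPM in controls (126 ± 10.4 against 186 ± 15.9, log2 fold change -0.60, SE 0.09, edgeR adjusted p = 0.00987). Bcl2l11 was 121.1, 125.1 and 116.1 against 74.2, 73.1 and 96.2 CPM (121 ± 4.52 against 81.2 ± 13.1, 0.53, SE 0.11, adjusted p = 0.0313). Neither gene overlapped between the groups. This gate had the largest share of called genes, 4.8% of those tested (1.68% higher and 3.12% lower), and 24.9% were without overlap. The sums rested on 1746 against 2782 UMIs of Bcl2a1b and 1696 against 1256 of Bcl2l11. A single cell gave up to 17.8% of a library's Bcl2l11 UMIs and up to 5.01% of its Bcl2a1b UMIs. Bcl2a1b stayed called whichever library was left out, but Bcl2l11 was called in only 1 of these 6 fits, the one without control replicate 3 (0.46 to 0.69 over the 6). With the replicate number as a block its adjusted p was 0.0509.

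The copies of Bcl2a1b fell with it. Bcl2a1a was 6.23, 1.59 and 3.43 against 20.6, 33.9 and 22.7 CPM (-2.91, SE 0.38, adjusted p = 0.0047), and Bcl2a1d was 72.2, 58.8 and 70.0 against 113.4, 102.2 and 106.3 CPM (-0.72, SE 0.10, adjusted p = 0.0061). Whether reads were shared between the copies was not tested, so the 3 falls may not be separate observations. Nfkb1, a subunit of NF-kB, which is known to drive A1 expression, fell in the same gate from 1196 ± 23.2 to 673 ± 45.5 CPM (-0.87, adjusted p = 0.0012). It also fell in natural killer cells (-0.75, adjusted p = 0.00356), where Bcl2a1b was 0.14 and not called. The part of Nfkb1 in these values was not tested.

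The makeup of the CD4 T gate moved with the groups, as did the summed level of the 15 dissociation genes (4339 to 4485 CPM in p16-DTR libraries, 5255 to 5454 CPM in controls), whose part in these values was not tested. Cells with a UMI of any of 3 genes of the interleukin 17 programme (Il17a, Il17f, Il23r) made up 14.1%, 2.79% and 8.29% of the gate under the label p16-DTR, against 39.8%, 45.8% and 32.9% in controls. In B cells, which should lack these genes, 0.408% to 1.17% of a library's cells had such a UMI, at a median of 12445 to 14481 UMIs per cell beside 13700 to 16420 in CD4 T cells. Il17a was 56.1, 0.993 and 4.12 CPM in the p16-DTR libraries and 392.3, 350.4 and 229 CPM in controls. When the cells with such a UMI were left out, a choice made after seeing the data, Bcl2a1b was 119.7, 122.2 and 106.3 against 130.7, 135.6 and 121.6 CPM (-0.18, edgeR adjusted p = 0.499). The groups overlapped narrowly for it, with 122.2 CPM in the highest p16-DTR library and 121.6 in the lowest control. Of its copies, Bcl2a1a was 3.72, 1.67 and 1.14 against 10.9, 6.55 and 3.39 CPM (-1.75, SE 0.57, edgeR adjusted p = 0.292), with overlap. Bcl2a1d was -0.17 (edgeR adjusted p = 0.625), also with overlap. Nfkb1 in the same cells was 633 ± 36.1 against 824 ± 23.8 CPM, without overlap. Bcl2l11 was then 120.4, 125.4 and 116.2 against 98.8, 97.9 and 130.8 CPM (0.11, adjusted p = 0.788), and both groups overlapped. Neither Bcl2a1b nor Bcl2l11 was called, in a comparison where 0.32% of tested genes were. In the control libraries the cells with such a UMI held 268.7, 277.4 and 259.04 CPM of Bcl2a1b and 34.1, 45.5 and 35.1 CPM of Bcl2l11, each apart from the values just given for the control cells without one. In each control library, then, the cells of the interleukin 17 programme were the richer in Bcl2a1b and the poorer in Bcl2l11. In the p16-DTR libraries the same cells held 232.3, 96.8 and 231.7 CPM of Bcl2a1b and 124.8, 120.1 and 115.0 CPM of Bcl2l11, from as few as 8 cells. Leaving these cells out took a larger share of the gate from controls. The part of the gate's makeup in the values of Bcl2a1b and Bcl2l11 was not tested.

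**Figure D4:**
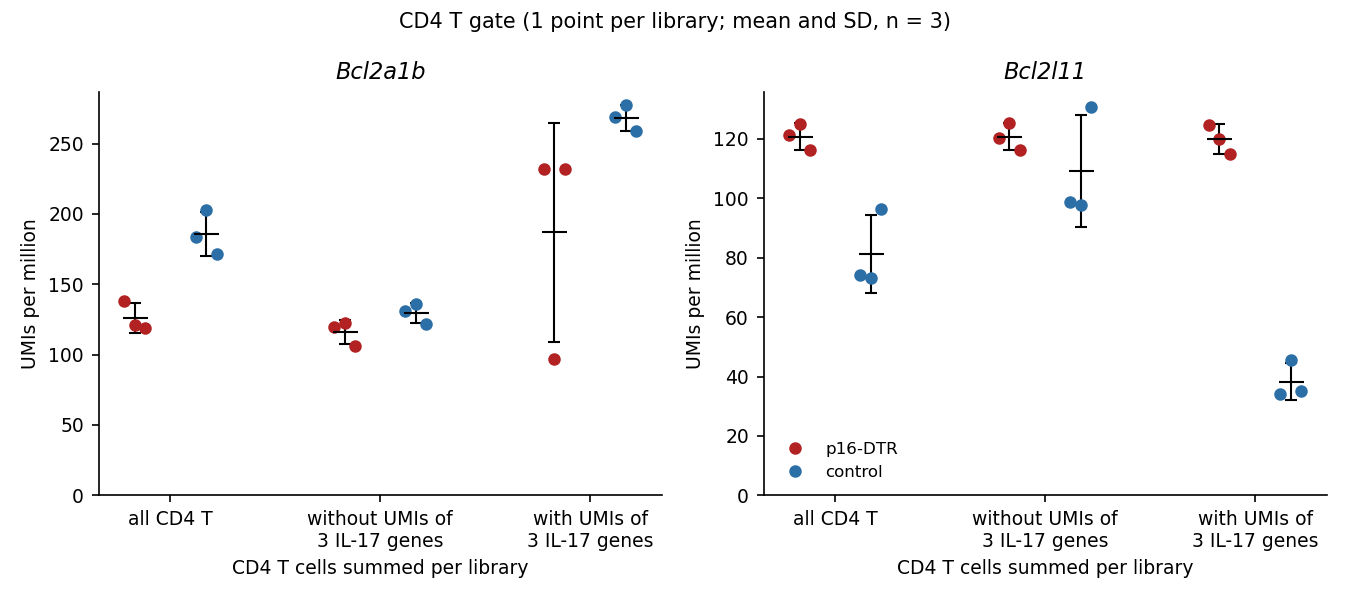
Bcl2a1b and Bcl2l11 in CD4 T cells by library, in CPM, for all cells of the gate and for those without and with a UMI of the interleukin 17 programme, with bars for the mean and SD (n = 3). Over all cells Bcl2a1b lay between 119.0 and 138.0 CPM in p16-DTR libraries and between 171.3 and 202.7 in controls, and without the programme cells the groups overlapped.

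Other members of the CD4 T gate were not called. Bcl2 was 709.7, 596.8 and 617.8 against 462.4, 508.8 and 569.7 CPM (0.28, adjusted p = 0.180), and Bak1 was 24.9, 33.0 and 31.2 against 23.3, 21.7 and 19.5 CPM (0.44, adjusted p = 0.122), both without overlap. Mcl1 (-0.01) and Pmaip1 (-0.06) were close to 0. In other lymphocytes Bcl2a1b and Bcl2l11 were not called: Bcl2a1b was 56.1 ± 6.26 against 49.5 ± 3.98 CPM in CD8 T cells (0.17, adjusted p = 0.634), and Bcl2l11 was 497 ± 70.9 against 562 ± 17.5 CPM in natural killer cells (-0.20, adjusted p = 0.561). In natural killer cells Pmaip1 was 25.0, 25.2 and 27.3 against 14.9, 9.85 and 17.02 CPM, without overlap (0.81, SE 0.21, adjusted p = 0.133). Gamma-delta T cells, the other large holders of Bcl2a1b among lymphocytes, had 320 ± 60.7 against 382 ± 21.5 CPM, with overlap. In these lymphocytes 0.0697% of genes were called in CD8 T cells, 0.474% in natural killer cells, 0.00807% in B cells and 0.0% in gamma-delta T cells. Groups were without overlap for 14.0% of genes in CD8 T cells, 15.9% in natural killer cells, 18.7% in B cells and 11.2% in gamma-delta T cells.

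In myeloid, stromal and ciliated gates no member was called. Background calls were as rare in most of them, with 0.0% of genes in neutrophils, classical monocytes, adventitial fibroblasts and pericytes, 0.00948% in nonclassical monocytes, 0.0116% in interstitial macrophages, 0.0183% in alveolar fibroblasts and 0.0446% in ciliated cells. Peribronchial fibroblasts had the most, 0.904%. Neutrophil Bcl2l11 was 301.9, 312.9 and 310.4 against 344.7, 381.6 and 429.7 CPM, without overlap (-0.33, adjusted p = 0.544). In neutrophils 12.4% of genes were without overlap, in interstitial macrophages 14.4% and in peribronchial fibroblasts 21.9%. Interstitial macrophages had 352, 351 and 360 against 393, 408 and 436 CPM of Bcl2a1b, also without overlap (-0.24, adjusted p = 0.562). In peribronchial fibroblasts Bcl2 was 93.7 ± 0.806 against 115 ± 6.79 CPM (-0.26, adjusted p = 0.216), the only tested gate in which it was lower without overlap. Bid in B cells was 16.03 ± 0.775 against 13.04 ± 0.894 CPM (0.33, adjusted p = 0.282). In alveolar fibroblasts 3 of 9 members were without overlap, Bak1 and Bcl2a1b higher and Bcl2l11 lower, beside 26.0% of genes, and in ciliated cells 1 of 6, Bak1, beside 13.1%. Bcl2a1b of the fibroblasts rested on 61 against 39 UMIs (1.07, adjusted p = 0.118), and its log2 fold change was -0.051 when predicted doublets were kept. Adventitial fibroblasts and pericytes had none among the 7 and 6 members tested, beside 17.1% and 12.7% of genes.

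Summed over all retained cells, each of the 9 genes had a positive log2 fold change, from 0.15 for Mcl1 to 0.45 for Bcl2l1, beside 47.9% of the 21412 genes tested, and none was called (0.0% of all genes). At an unadjusted p under 0.05 stood 6 of the 9, beside 22.5% of all genes. DESeq2, which called 2386 of 20005 genes in this comparison (11.9%), called 3 members: Mcl1 (0.16, adjusted p = 3.3e-03), Bid and Bak1. Mcl1 was 457.9, 465.4 and 479.0 against 437.2, 429.4 and 439.4 CPM, Bid 8.31, 7.76 and 9.03 against 7.08, 6.14 and 6.89, and Bak1 21.3, 19.4 and 20.6 against 14.9, 18.5 and 16.8. These and Bbc3 were without overlap, 4 of 9 genes, beside 30.7% of all genes. All 4 were higher, beside 8.31% of all genes that were higher without overlap. Bcl2 overlapped, at 150.8, 187.7 and 223.4 against 125.4, 131.8 and 180.9 CPM. In these sums more cells of a type and more RNA per cell cannot be told apart. CD8 T cells, which held the most Bcl2, gave 33247 of the 147489 Bcl2 UMIs in the p16-DTR libraries and 20120 of 119105 in controls.

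Aerocytes were divided within each library into cells with at least 1 Cdkn2a UMI and cells with none, which allows a comparison inside each mouse. Between 64 and 122 aerocytes of a library were Cdkn2a-detected and between 283 and 543 were not. The median depth of detected cells was higher in each of the 6 libraries, with the narrowest gap in control replicate 1 (20781.5 against 20640 UMIs) and the widest in p16-DTR replicate 3 (22600 against 21111 UMIs). A cell with no UMI may still express the gene, so the classes are not types.

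Bcl2 rose in the Cdkn2a-detected aerocytes. It was 141.1, 135.5 and 140.2 CPM in the detected cells of the p16-DTR libraries and 119.0, 90.4 and 109.7 in those of the controls. The undetected cells held 113.7, 115.8 and 95.4 CPM in the p16-DTR libraries and 82.1, 87.6 and 91.9 in the controls. Detected cells were higher in 6 of 6 libraries (123 ± 20.2 against 97.8 ± 13.9 CPM, log2 fold change 0.32, SE 0.07, edgeR with library as a block, adjusted p = 0.043), in a comparison where 1.06% of 11902 genes were called and 0.21% were called higher. The call was close to the threshold: it was kept in 1 of the 6 fits that leave out a library (without control replicate 2), with log2 fold changes of 0.28 to 0.38. When each cell was thinned to 5000 UMIs and the classes were drawn again on the thinned counts, which left 32 to 75 detected cells in a library, the log2 fold change was 0.19 (adjusted p = 0.840). In these classes the share of cells with a Bcl2 UMI was higher among detected cells in 5 of 6 libraries, and in control replicate 3 it was 26.7% against 30.0%. Within the control libraries the log2 fold change at full depth was 0.28 (adjusted p = 0.603) and within the p16-DTR libraries 0.36 (adjusted p = 0.0655). The difference between the groups in this contrast was 0.08 (adjusted p = 0.992).

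The other 8 members were not called between the classes. Pmaip1 was 50.1, 56.3 and 91.6 CPM in detected cells of the p16-DTR libraries and 42.3, 46.7 and 64.2 in those of the controls, against 43.2, 43.5 and 68.7 and 36.9, 47.8 and 41.3 CPM in undetected cells (0.33, SE 0.08, adjusted p = 0.0922, higher in 5 of 6 libraries). Bcl2l11 was lower in the detected cells of all 6 libraries, at 14.7 ± 5.21 against 22.8 ± 4.70 CPM (-0.54, SE 0.18, adjusted p = 0.269), from 196 UMIs in detected cells. In the thinned classes the share of cells with a Pmaip1 UMI was higher among detected cells in 6 of 6 libraries (25.1% ± 5.31 against 16.5% ± 3.00), and that with a Bcl2l11 UMI was lower in 5 of 6, with 12.5% against 5.30% in p16-DTR replicate 3. Bbc3 (0.20), Bak1 (0.21), Bcl2l1 (0.07) and Mcl1 (0.07) were small and above 0, Bid was -0.10, and Bcl2a1b rested on 17 and 62 UMIs. Bcl2 and Bcl2l11 were the 2 of 9 members with 1 direction in 6 of 6 libraries, beside 5.94% of all genes. At an unadjusted p under 0.05 stood 4 of 9, beside 9.61%. For Bid this contrast differed by 0.91 between the groups, which was not called (edgeR adjusted p = 0.989). For that difference 0.0% of genes were called, and 579 of 11902 had an unadjusted p under 0.05. Bcl2 between the groups in undetected aerocytes alone, where 0.0161% of genes were called, was 0.35 (adjusted p = 0.182), beside 0.38 in all aerocytes. Undetected cells gave 5150 of the 6666 Bcl2 UMIs of all aerocytes, so the 2 values were bound to be alike.

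**Figure D5:**
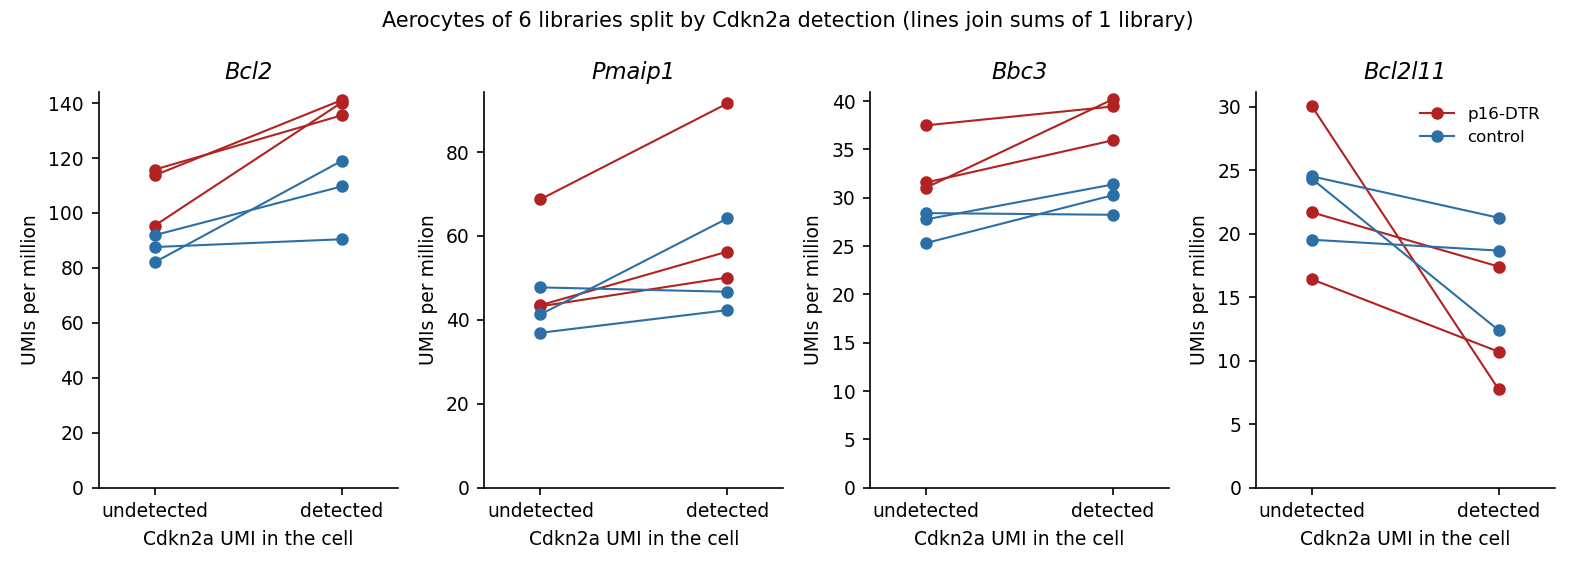
Bcl2, Pmaip1, Bbc3 and Bcl2l11 in Cdkn2a-undetected and detected aerocytes, in CPM, with a line joining the 2 classes of each library. For Bcl2 the detected class lay higher in 6 of 6 libraries, with means of 123 and 97.8 CPM.

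Bax, the pore-forming partner of Bak1, was the only other gene of the BCL2 family called in that contrast. It was 146, 160 and 177 CPM in detected and 140, 123 and 133 in undetected cells of the p16-DTR libraries, and 123, 151 and 133 against 115, 127 and 110 CPM in controls (0.26, SE 0.06, edgeR adjusted p = 0.047), higher in 6 of 6 libraries. Within the control libraries it was 0.23 (adjusted p = 0.524) and within the p16-DTR libraries 0.30 (adjusted p = 0.146), neither of them called. Between the groups, 16 further genes of the family gave 179 tests over the gates, with none called higher and 2 lower, the Bcl2a1 copies in CD4 T cells. For 16 genes of the apoptosome, the caspases and their inhibitors, none of 290 tests was called. Of 14 genes that regulate the family, tested 255 times, 1 was called higher and 3 lower, beside 0.506% of all pairs. The higher one was Foxo3, a transcription factor known to drive Bcl2l11 and Bbc3, in venous endothelium (90.7 ± 16.1 against 49.2 ± 7.30 CPM, 0.91, adjusted p = 0.0414). Neither of these targets was called there. The lower ones were Nfkb1 in CD4 T and natural killer cells and Usp9x, a deubiquitinase known to stabilise MCL1, in CD4 T cells (-0.44, adjusted p = 0.0243), where Mcl1 transcripts had a log2 fold change of -0.01.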

How the data were processed

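The deposited files hold UMI counts per gene and barcode for 1 library per mouse, made by the authors with Cell Ranger 8.0.1 and not normalized, per the file headers. The genome build was mm10, per the submitters' processing notes. Levels are UMIs of a gene per 1000000 UMIs of the summed cells. Gene positions came from GENCODE M21 (30934 of 31054 feature IDs matched) and upstream sequences from RefSeq.

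Barcodes with at least 500 UMIs, at least 300 genes and at most 15% mitochondrial UMIs were kept, and predicted doublets were removed (2 simulated doublets per cell, 2000 variable genes, 30 principal components, 30 neighbours, an expected 0.4% per 1000 cells). The median retained cell of a library held 16654 to 17938.5 UMIs. Between 8864 and 11023 cells of a library fell in a gate. A cell that passed more than 1 gate was left out (1434 to 1831 per library), except that the aerocyte gate asked for Car4 and Ednrb alone. Gates with at least 30 cells in every library, 19 of 31, were tested.

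Counts were summed per library and gate and compared with edgeR 4.0.16 in R 4.3.3 (filterByExpr, TMM scaling, quasi-likelihood test, Benjamini-Hochberg over all genes of a comparison, threshold 0.05). The aerocyte contrast had library as a block and left Cdkn2a out. Differences between gates came from joint fits of 2 gates with library as a block. Alternatives were other scalings, no low-count filter, DESeq2 1.42.0, other cell filters and gates, doublets kept, thinning, and leaving out each library. Replicate numbers were not taken to pair the mice. Same-numbered libraries had deviations correlated at 0.14, 0.003 and 0.12, and differently numbered ones at -0.16 to 0.05. The values 0.14 and 0.12 thus lay above all differently numbered pairs, and whether the numbers pair the mice cannot be told from these values. Calls with the replicate number as a block are given below.

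The edgeR step was tested on simulated data. In general capillary cells it recovered 93.9% of 98 genes changed by 2 on the log2 scale and 74.0% of 96 changed by 1. It made 16 false calls among 15267 genes. In the aerocyte contrast it recovered 93.9% of 98 and 76.8% of 99, with 23 false calls among 11766. In both runs false calls were a larger share of all calls than the threshold allows. Calls close to the threshold, such as Bcl2 and Bax in the aerocyte contrast, are uncertain to that extent. Changes smaller than 1 were not simulated, and neither were venous endothelium and CD4 T cells. How many such changes are recovered, or how many changes in those gates, was not tested.

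All 9 members were named. Of the other gene lists, called genes were named, up to 5 in a comparison and otherwise the 3 with the largest change. Likeness is Pearson's r of log2(mean CPM + 1) over 19 gates, among genes of at least 10 CPM in a gate. The 3 highest were named, apart from some items that are not reported here. The members and gene lists were chosen with earlier results of these data known. Figures and tables were made with matplotlib 3.10.9, scikit-learn 1.9.0 and pandas 2.3.3 under Python 3.11.15.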

Additional observations from a re-analysis of the deposited data

Results flagged for a closer look

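Effects of the group on the 9 genes were compared between gates in joint edgeR fits, added after seeing the data, over 8 pairs of gates and 67 differences. Each pair set either venous endothelium or CD4 T cells, the 2 gates with a called member, against another gate. No other pairs were compared, and differences of the called genes rest on the same values as those calls. In 4 of the differences, each with CD4 T cells, the effect differed between the 2 gates. Bcl2a1b had an effect lower by 0.77 on the log2 scale in CD4 T than in CD8 T cells (difference -0.77, SE 0.14, edgeR adjusted p = 0.0322, where 0.796% of genes were called). Against gamma-delta T (-0.32, adjusted p = 0.630), natural killer (-0.74, adjusted p = 0.146) and B cells (-0.43, adjusted p = 0.287) its difference was not called. Bcl2l11 had an effect higher in CD4 T than in natural killer cells (0.75, SE 0.14, adjusted p = 0.0392, beside 1.02% of genes) and higher than in B cells (0.64, SE 0.10, adjusted p = 0.0195, beside 1.43% of genes). Against CD8 T (0.42, adjusted p = 0.236) and gamma-delta T cells (0.28, adjusted p = 0.913) it was not called. Pmaip1 went the other way against natural killer cells (-0.91, SE 0.18, adjusted p = 0.0484). Its own effects were -0.06 in CD4 T and 0.81 in natural killer cells, neither of them called. The share of CD4 T cells with a UMI of the interleukin 17 programme moved with the groups, and its part in these differences was not tested.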

How the results depend on the processing

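Calls of a member over the gates numbered 3 (1.99% of member tests, beside 0.506% of all gene tests). They numbered 12 with no low-count filter (7.06% beside 1.74%), 11 with DESeq2 (8.15% beside 2.45%) and 2 with the replicate number as a block (1.31% beside 0.569%). They numbered 1 to 3 when 1 library was left out, beside 0.163% to 0.5% of all gene tests. Without p16-DTR replicate 3, 1 call was left. Other settings gave 3 or 4, beside 0.321% to 0.6%. The added calls were mostly endothelial, such as Bcl2 in lymphatic endothelium (0.92 with DESeq2, adjusted p = 7.6e-04) and in general capillary cells (0.63, adjusted p = 1.2e-04). Over all cells no member was called except by DESeq2, which called 3 of 9, beside 11.9% of all genes. The aerocyte contrast had 1 call, Bcl2, beside 1.06% of genes, and 3 calls with no low-count filter, beside 1.84%. It had 0 with library size alone (beside 1.03% of genes), with doublets kept (0.0222%) and after thinning with the classes drawn again (1.33%). It also had 0 within control libraries (0.292%) and within p16-DTR libraries (1.11%). When 1 library was left out it had 0 to 1 (0.415% to 1.73%). With at least 2 Cdkn2a UMIs the single call was Pmaip1 (0.43, edgeR adjusted p = 0.0249), beside 2.82% of genes. Bcl2 was then 0.33 (adjusted p = 0.0713). Bcl2a1b in alveolar fibroblasts, 1.07 on 61 against 39 UMIs and not called, reversed to -0.051 with doublets kept (adjusted p = 0.958). The block ended the call of Bcl2l11 in CD4 T cells (0.54, adjusted p = 0.0509) and no other call of a member. Of 626 alternative values for 43 single results, 625 kept their direction. Of these results, 32 over gates, 6 over all cells and 4 between aerocyte classes had an unadjusted edgeR p under 0.05 in the main fits. The alternatives used mostly the same cells and libraries, so a kept direction was likely beforehand and the count is a description. The cause of the changes in calls was not tested. Requiring 3 UMIs of each arterial marker left 28 cells in a library, so that gate was not fitted at that setting. Members with few UMIs in a gate could not be tested there, which held for Bcl2a1b, Bid and Pmaip1 in several gates.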
